A study of Mus musculus with 576 samples.

Results

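The glucocorticoid receptor gene Nr3c1 and 9 other nuclear receptor genes were followed in single mouse erythroid progenitors cultured without or with a synthetic glucocorticoid. The 10 genes were taken by symbol from the 49466 genes of the count table: Nr3c1, Nr3c2, Ppara, Rxra, Rxrb, Rara, Thra, Nr1h2, Nr2c1 and Nr2c2. The cells came from the liver of C57/Bl6J mouse embryos at embryonic day 14.5, were depleted of cells with mature lineage markers, and were sorted for enrichment in BFU-E (burst forming unit-erythroid), an early progenitor of the red cell line. All groups shared this sort and a serum free medium with 100 ng/mL stem cell factor, 40 ng/mL insulin-like growth factor 1 and 2 U/mL erythropoietin. Control cultures held no dexamethasone and were sampled after 24, 48 or 72 hours, called days 1, 2 and 3 here. Dexamethasone cultures held it at 100 nM and were sampled at the same times. Each day and treatment is 1 plate of single cells, so that the series is 6 plates, with 94, 96 and 93 kept cells for control and 94, 92 and 94 for dexamethasone. Nothing states whether plates came from separate embryos or cultures. With 1 plate for each day and treatment, the days serve as the replicates of the treatment difference. P-values for treatment therefore measure how that difference varied over days, and those for day how the day difference varied between treatments. Both can mix real change with spread between plates, which may be technical.

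Nuclear receptors are transcription factors that bind DNA through a pair of zinc fingers and are switched by small lipid-soluble ligands. Steroid receptors such as the glucocorticoid receptor wait in the cytoplasm with heat shock chaperones, enter the nucleus with their hormone and bind as homodimers. The PPAR, retinoic acid, thyroid hormone and LXR receptors sit on DNA with a retinoid X receptor (RXR) as partner. TR2 and TR4, the products of Nr2c1 and Nr2c2, are orphan receptors known as repressors of embryonic globin genes. In erythroid culture, glucocorticoids are known to prolong the renewal of BFU-E progenitors, and PPAR alpha agonists are known to act together with them.

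The genes differ in the bases that code for the stretch that reads DNA, and 4 of them are shown because each stands for another kind of receptor. The lines give 75 coding bases of the first zinc finger, 5' to 3' on the coding strand of GENCODE vM21 transcripts (build GRCm38). The capitals mark the P box, 5 codons that contact the bases of the hormone response element.
Rxrb: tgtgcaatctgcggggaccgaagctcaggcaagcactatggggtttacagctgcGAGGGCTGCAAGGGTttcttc
Thra: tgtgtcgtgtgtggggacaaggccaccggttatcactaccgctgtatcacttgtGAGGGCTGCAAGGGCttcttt
Nr1h2: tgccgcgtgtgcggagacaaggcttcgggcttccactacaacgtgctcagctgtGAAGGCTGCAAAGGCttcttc
Nr2c2: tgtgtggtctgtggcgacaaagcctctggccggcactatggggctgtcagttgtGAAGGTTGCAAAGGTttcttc
The window of Nr1h2 (LXR beta) lies in 1 exon, at chr7:44552094-44552168 on the minus strand, and an intron splits those of Rxrb, Thra and Nr2c2. Rxrb and Thra (thyroid hormone receptor alpha) differed at 27 of the 75 bases, only 1 of them in the P box, and the P box of Thra was the same as that of Rxra. The P boxes of Nr1h2 and Nr2c2 each differed from that of Rxrb at 3 bases. All these P box differences lie at the last base of a codon, and the 4 P boxes code for the same 5 amino acids.

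The cells carried the erythroid markers that the label BFU-E calls for. All 12 listed erythroid markers had counts on every plate except Slc4a1, which was at 0 on the dexamethasone plate of day 1, and their summed level was 3691, 15200 and 24370 CPM on control days 1 to 3 against 2656, 3763 and 8594 CPM with dexamethasone. CPM is a read count scaled to library size, with TMM scaling for the plate levels of genes and by the plain total for single cells, parts of a plate and marker sums. The 8 early progenitor markers summed to 852, 359 and 274 CPM in control cultures and 979, 1082 and 572 CPM with dexamethasone. Cells with at least 2 of 10 neutrophil or monocyte markers at 10 CPM or more numbered 15, 0 and 11 on the control plates and 10, 5 and 9 on those with dexamethasone. Those 10 markers summed to 1361, 3.64 and 1821 CPM in control cultures and to 331, 539 and 588 CPM with dexamethasone, and 6 of them, among them Elane, Ctsg and Lyz2, were at 0 on control day 2. Macrophage, lymphoid and hepatocyte markers each summed to at most 7.01 CPM on a plate, and no cell carried them by this rule. Megakaryocyte markers were carried by 15 to 41 cells of a plate, mast cell and basophil markers by 0 to 7 and endothelial markers by 0 to 6. Mast cell and basophil markers summed to 54.4, 2.80 and 56.1 CPM in control cultures and to 31.6, 825 and 42.6 CPM with dexamethasone, and megakaryocyte markers to 219, 82.8 and 78.6 CPM and to 252, 342 and 198 CPM. The fits were repeated without the cells that bore neutrophil or monocyte markers, and the part of the other lineages in the receptor differences was not tested.

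By level per length, Nr1h2 stood first and the glucocorticoid receptor second. The mean over 6 plates was 18.8 CPM per kb of exon for Nr1h2, 7.94 for Nr3c1, 7.32 for Rxrb, 3.45 for Thra, 2.41 for Nr2c1 and 2.20 for Nr2c2. Rara followed with 0.381 CPM per kb, Rxra with 0.184, Nr3c2 with 0.0419 and Ppara with 0.0245. Nr3c1 ranged over plates from 5.95 to 10.1 CPM per kb and Rxrb from 5.00 to 9.19, so these neighbours did not differ beyond their spread. Measured by the longest transcript in place of all exons, Rxrb came before Nr3c1, at 11.1 against 9.48 CPM per kb. Nr2c1 and Nr2c2 overlapped too, with 1.59 to 3.52 and 2.04 to 2.70 CPM per kb, and Nr2c2 came first by the longest transcript (4.29 against 2.98). Of the 39 other nuclear receptor genes in the table, 10 had a mean of at least 1 CPM.

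**Figure D1:**
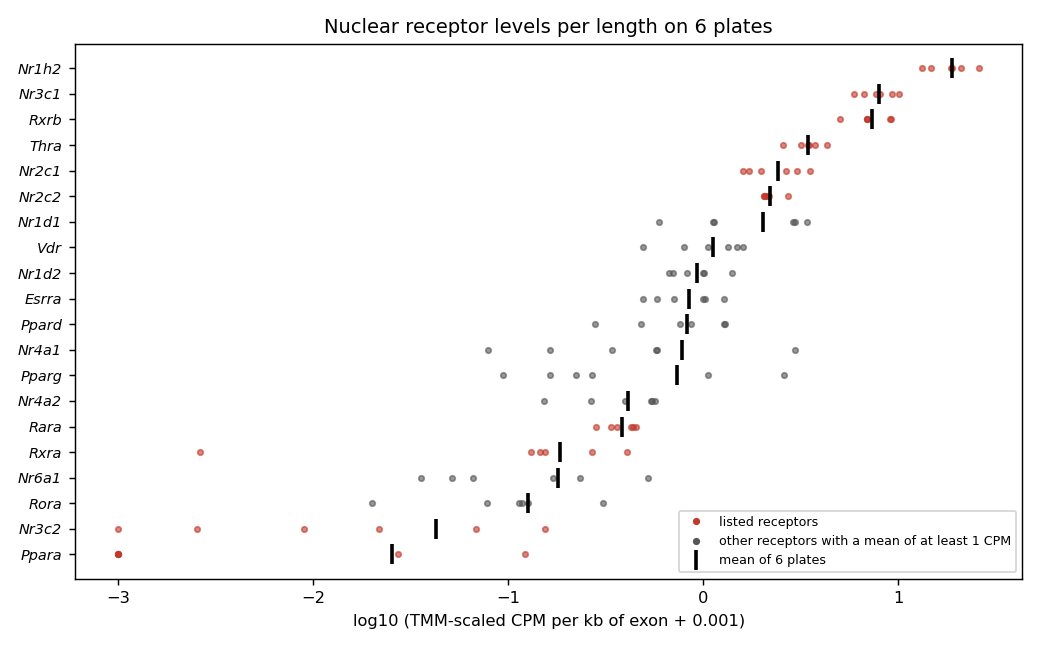
Level of each nuclear receptor gene as log10 of CPM per kb of exon plus 0.001, with 1 point per plate and a bar at the mean of 6 plates. The 10 listed receptors are red and the 10 other receptors with a mean of at least 1 CPM grey; Nr1h2 is highest and Ppara, with counts on 2 plates, lowest.

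No member passed the test over all genes for dexamethasone against control. edgeR's quasi-likelihood test, with day as a term, called 0 of 20040 genes (0%) at an adjusted p under 0.05, and hence 0 of 10 members. At an unadjusted p under 0.05, 1 member was higher and 1 lower with dexamethasone, 2 of 10, where 10.3% of all tested genes passed. The same pair, Nr3c1 and Nr1h2, had plates that did not overlap between treatments. All 3 dexamethasone plates lay above all 3 control plates for 1 of 10 members (7.14% of all tested genes) and below them for 1 of 10 (5.44%). DESeq2, the alternative test, called 1 of the 10 members, Nr1h2, where 7.43% of the 16931 genes it tested were called; Ppara got no adjusted p from it. The median dexamethasone log2 fold change was 0.02 over the 10 members and 0.07 over all tested genes. All 10 members passed the filter on low counts, including some with counts in a handful of cells.

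**Figure D2:**
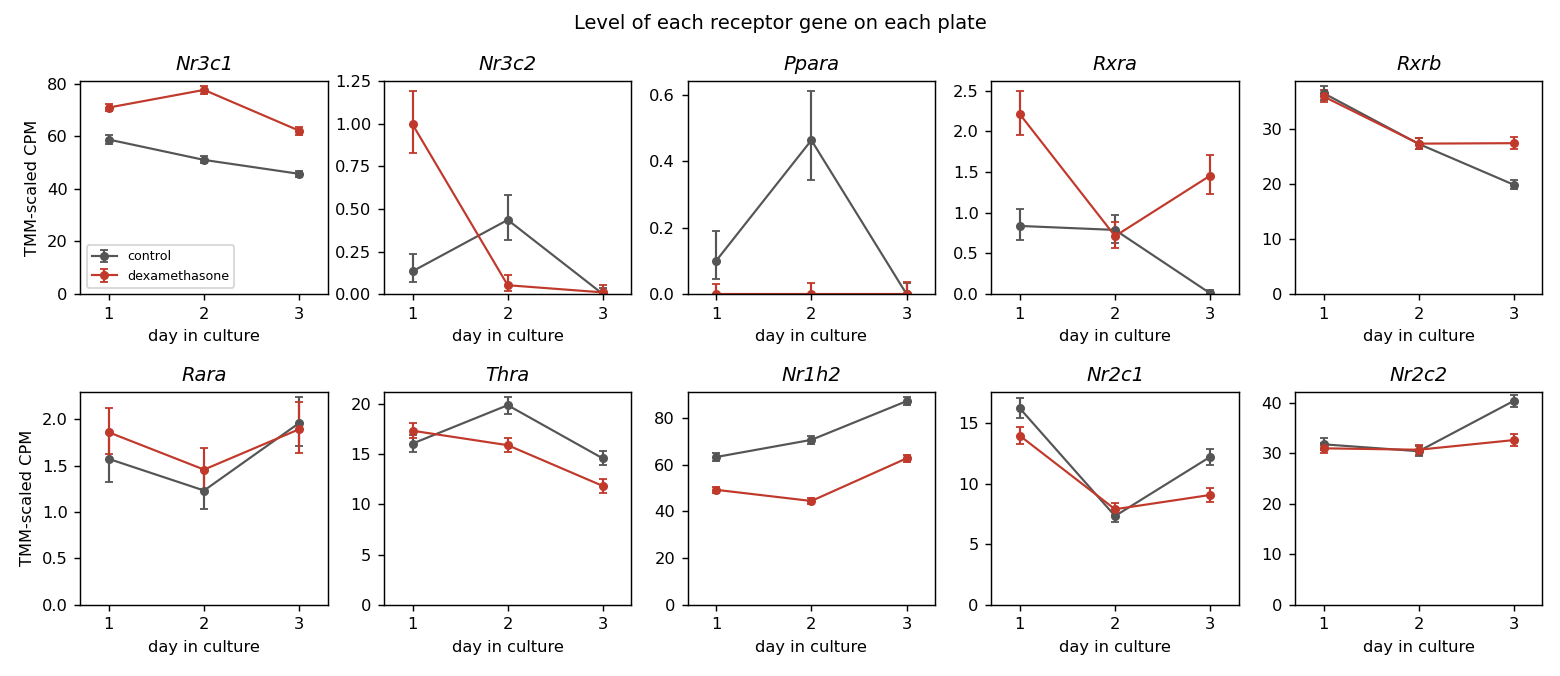
TMM-scaled CPM of each of the 10 receptor genes by day in culture, control grey and dexamethasone red, 1 point per plate with its exact Poisson interval at 95%. Nr3c1 is higher and Nr1h2 lower on all 3 dexamethasone plates, and the other 8 genes overlap between treatments.

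Nr3c1 encodes the glucocorticoid receptor, the protein that dexamethasone binds, and lies at chr18:39410545-39519421 on the minus strand. Its level was 58.7, 51.02 and 45.7 CPM on control days 1, 2 and 3 and 70.9, 77.6 and 62.1 CPM with dexamethasone. The lowest dexamethasone plate thus stood above the highest control plate, and the mean was 51.8 ± 6.55 CPM (SD, n = 3 plates) in control cells and 70.2 ± 7.78 CPM (SD, n = 3 plates) with dexamethasone. The log2 ratio of dexamethasone to control was 0.27, 0.61 and 0.44 on days 1 to 3, positive on 3 of 3 days. Over the days the log2 fold change was 0.44 (SE 0.14), with an edgeR p of 0.0307 and an adjusted p of 0.458, which misses the threshold. DESeq2 gave 0.42 with an adjusted p of 0.166. Read counts per plate for Nr3c1 ran from 5126 to 8939, so the counting error of reads is small beside the spread between plates. The error from which cells were sampled on a plate is not part of it and was not estimated. No cell gave more than 13.25% of a plate's Nr3c1 counts.

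Among single cells Nr3c1 differed in how many cells had a count as well as in level, but the higher share was not particular to it. On day 3 the share was also higher with dexamethasone for Rxrb, Rara, Thra, Nr1h2, Nr2c1 and Nr2c2. Among these, only Rxrb had a higher level that day, with a log2 ratio of 0.46, and Rara was nearly equal, at -0.05. Thra, Nr1h2, Nr2c1 and Nr2c2 had a lower level, with log2 ratios of -0.30, -0.48, -0.43 and -0.31. A count was found in 89.4%, 70.8% and 64.5% of control cells on days 1 to 3 and in 90.4%, 94.6% and 80.9% of dexamethasone cells. With every cell thinned to 620000 counts, which left out 4 to 18 shallower cells of a plate, the shares were 88.6%, 64.1% and 53.9% in control cells and 88.9%, 94.3% and 84.7% with dexamethasone. Day 1 was alike in both treatments. The exact binomial intervals of control and dexamethasone did not overlap on day 2, and on day 3 they were apart only after thinning. These intervals cover counting error over cells of a single plate only. Dexamethasone cells also had more genes with a count on each day, with medians of 8119, 7556 and 6961 genes per control cell against 8924, 8829 and 8520 unthinned, and the part of this in the shares was not tested. The median cell of control held 46.4, 14.9 and 0.99 CPM of Nr3c1 on days 1 to 3, against 74.9, 69.4 and 47.9 CPM with dexamethasone. On control day 3 the median cell was thus near 0 while the plate sum was 45.7 CPM.

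That plate sum rested in good part on cells with neutrophil or monocyte markers. On control day 3 the 11 such cells held 42.5% of the plate's Nr3c1 counts, at 168 CPM against 28.5 CPM in the other 82 cells. On control day 1 the order was the other way, with 30.1 CPM in 15 such cells and 64.5 CPM in the other 79. Without these cells and with TMM scaling, Nr3c1 stood at 63.8, 50.7 and 30.3 CPM in control cultures and 73, 75 and 60.8 CPM with dexamethasone. The treatments then overlapped, since dexamethasone day 3 lay below control day 1, while the log2 fold change was 0.59 (SE 0.20, edgeR p 0.0403, adjusted p 0.404). The share of the remaining cells with a count was 96.2%, 70.8% and 63.4% in control cells and 90.5%, 95.4% and 80% with dexamethasone. The day 3 against day 1 log2 fold change of Nr3c1 was -0.28 with all cells (edgeR p 0.170) and -0.67 without these cells (edgeR p 0.0508, adjusted p 0.312).

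**Figure D3:**
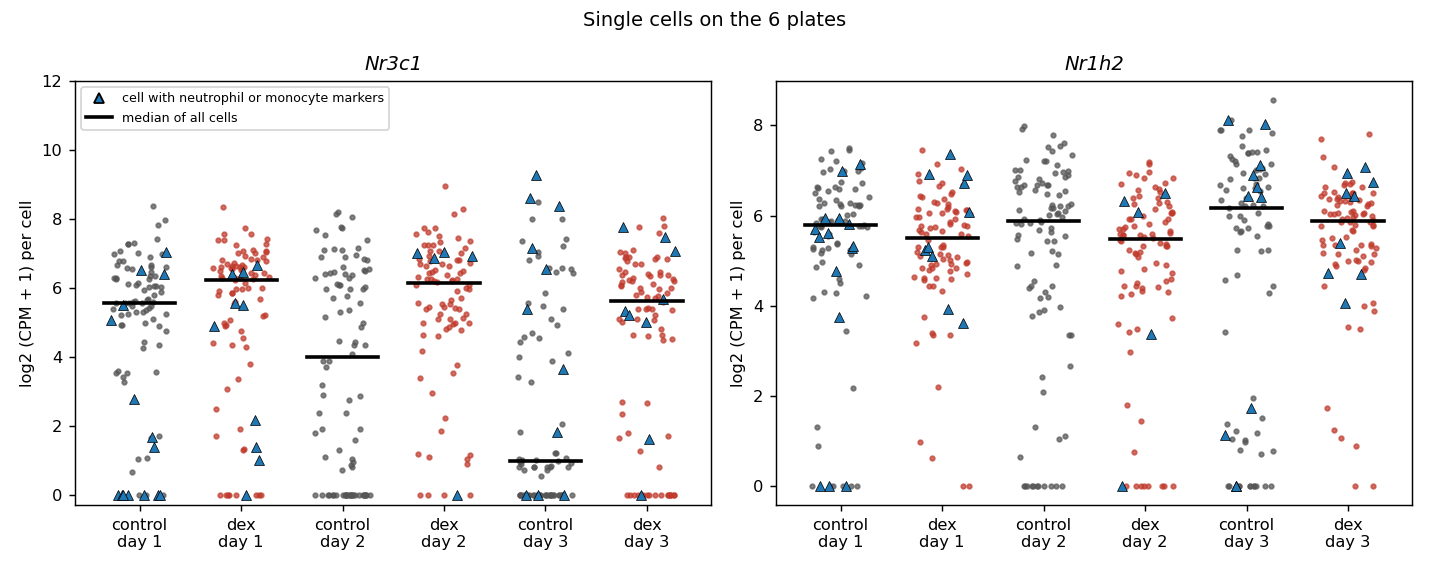
Log2 of CPM plus 1 in each cell for Nr3c1 and Nr1h2, with 1 point per cell, a black bar at the median of all cells of a plate and blue triangles for cells with neutrophil or monocyte markers. The Nr3c1 median drops to 0.99 CPM on control day 3, where 3 of the triangles are among the highest points, and most cells of every plate hold Nr1h2.

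Nr3c2, the mineralocorticoid receptor, which also binds glucocorticoids, was found in few cells. It had 12, 47 and 0 counts on control days 1 to 3 and 120, 6 and 1 counts with dexamethasone. These came from 2, 3 and 0 control cells and from 5, 1 and 1 dexamethasone cells, and 1 cell gave 65% of the counts on dexamethasone day 1. On control day 3, 0 of 93 cells had a count, which allows a share of up to 3.23% by the limit of 3 counts and 3.89% by the exact binomial interval. The log2 fold change of 0.89 had an SE of 2.01, and it changed sign without the highest cell of each plate (-0.95) and when any of 4 plates was left out.

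Of Rxra and Rxrb, the retinoid X receptors listed and the partners of most of the receptors below, Rxrb was the one the cells carried. Rxrb stood at 36.5, 27.3 and 19.9 CPM on control days 1 to 3 and at 35.9, 27.4 and 27.4 CPM with dexamethasone. Days 1 and 2 were nearly equal between treatments, with log2 ratios of -0.02 and 0.00, and day 3 stood apart, with 0.46. The share of cells with a count was 74.5%, 66.7% and 43.01% in control cells and 82.98%, 71.7% and 73.4% with dexamethasone. On day 3 the intervals, 32.8% to 53.7% and 63.3% to 81.99%, did not overlap, and thinned to equal depth the shares were 34.8% and 68.2%. The log2 fold change over days was 0.15 (SE 0.19, edgeR p 0.488), and it was -0.01 and -0.02 without the control or the dexamethasone plate of day 3. A test of a change of the difference with day gave p 0.370 for Rxrb (edgeR).

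Day 1 held the highest Rxrb level in both treatments. The Rxrb log2 fold change for day 3 against day 1, over both treatments, was -0.63 (SE 0.24, edgeR p 0.0549, adjusted p 0.353), and -0.80 (p 0.0421, adjusted p 0.295) without cells bearing neutrophil or monocyte markers. On control day 3, the 45 cells with a Kit count, Kit being the stem cell factor receptor of early progenitors, held 28.8 CPM of Rxrb and the 48 cells without held 7.42 CPM. A Rxrb count was present in 57.8% of the former and 29.2% of the latter, whose median depth was 1335000 and 1110000 counts. For Nr3c1 the same cells gave 38.7 CPM with Kit and 50.3 CPM without, while 73.3% and 56.2% of them had a count. Without cells bearing neutrophil or monocyte markers, 39 cells with Kit and 43 without were left, and Nr3c1 stood at 27.6 and 29.4 CPM and Rxrb at 23.3 and 6.12 CPM.

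Rxra was seen in 1 to 6 cells of a plate. It had 75, 85 and 1 counts on control days 1 to 3 and 266, 82 and 146 counts with dexamethasone, or 0.837, 0.788 and 0.00892 CPM and 2.21, 0.712 and 1.46 CPM. Control and dexamethasone plates overlapped, and the log2 fold change of 2.12 had an SE of 1.78. On dexamethasone day 3, 58.9% of the Rxra counts were in the 9 cells that bore neutrophil or monocyte markers, and the part of these cells in the difference was not tested beyond leaving them out, which gave 1.71 (SE 1.95). The Rxra log2 fold change was 0.63 and 0.61 without the control or the dexamethasone plate of day 3, 3.89 without either day 2 plate, and 0.65 with each cell weighted alike.

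Ppara, the receptor for fatty acids and fibrates, was almost without counts. There were 9 counts in 1 cell on control day 1, 50 counts in 1 cell on control day 2, and 0 counts in the other 4 plates, all 3 dexamethasone plates included. On a dexamethasone plate 0 of 92 to 94 cells allows a share of cells with a count of up to 3.19% to 3.26% by the limit of 3 counts and 3.85% to 3.93% by the exact binomial interval, and 0 counts allows up to 0.0249 to 0.0299 CPM. No fold change is read for a gene at this level. Among the other PPAR genes, Ppard was found in 23.4% to 46.7% of the cells of each plate, at 3.62, 9.66 and 9.56 CPM in control cultures and 2.08, 5.72 and 6.48 CPM with dexamethasone. Pparg stood at 0.793, 0.658 and 0.482 CPM in control cultures and 0.274, 3.13 and 7.67 CPM with dexamethasone, in 1.06%, 10.9% and 25.5% of dexamethasone cells, and its treatments overlapped (log2 fold change 1.76, SE 1.44, edgeR adjusted p 0.724).

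Nr1h2 encodes LXR beta, a receptor for oxidised cholesterol, and lies at chr7:44549616-44553951 on the minus strand. Its level was 63.2, 70.6 and 87.1 CPM on control days 1 to 3 and 49.2, 44.4 and 62.7 CPM with dexamethasone. Every dexamethasone plate lay below every control plate, though dexamethasone day 3 and control day 1 were only just apart, and their Poisson intervals overlapped. The mean was 73.7 ± 12.2 CPM (SD, n = 3 plates) in control cells and 52.1 ± 9.46 CPM (SD, n = 3 plates) with dexamethasone, and the log2 ratios on days 1 to 3 were -0.36, -0.67 and -0.48. The log2 fold change was -0.50 (SE 0.14, edgeR p 0.0185, adjusted p 0.457), and DESeq2 gave -0.53 with an adjusted p of 0.0499. Without cells bearing neutrophil or monocyte markers the plates stood at 65.3, 70.2 and 86.1 CPM and 47.7, 43.4 and 61.4 CPM, again without overlap.

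The lower level of Nr1h2 with dexamethasone was not one of fewer cells with a count. Nr1h2 counts were found in 90.4%, 88.5% and 86.02% of control cells and in 97.9%, 90.2% and 97.9% of dexamethasone cells. The median cell held 53.98, 57.5 and 70.6 CPM in control cultures and 44.4, 43.5 and 58.2 CPM with dexamethasone, lower with dexamethasone on each day, while control day 1 lay below dexamethasone day 3. With each cell weighted alike, the log2 fold change was -0.39 with a limma p of 0.0577. The related gene Nr1h3 (LXR alpha), which is known from macrophages and liver, had counts in 2.08% to 6.45% of the cells of a plate.

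**Figure D4:**
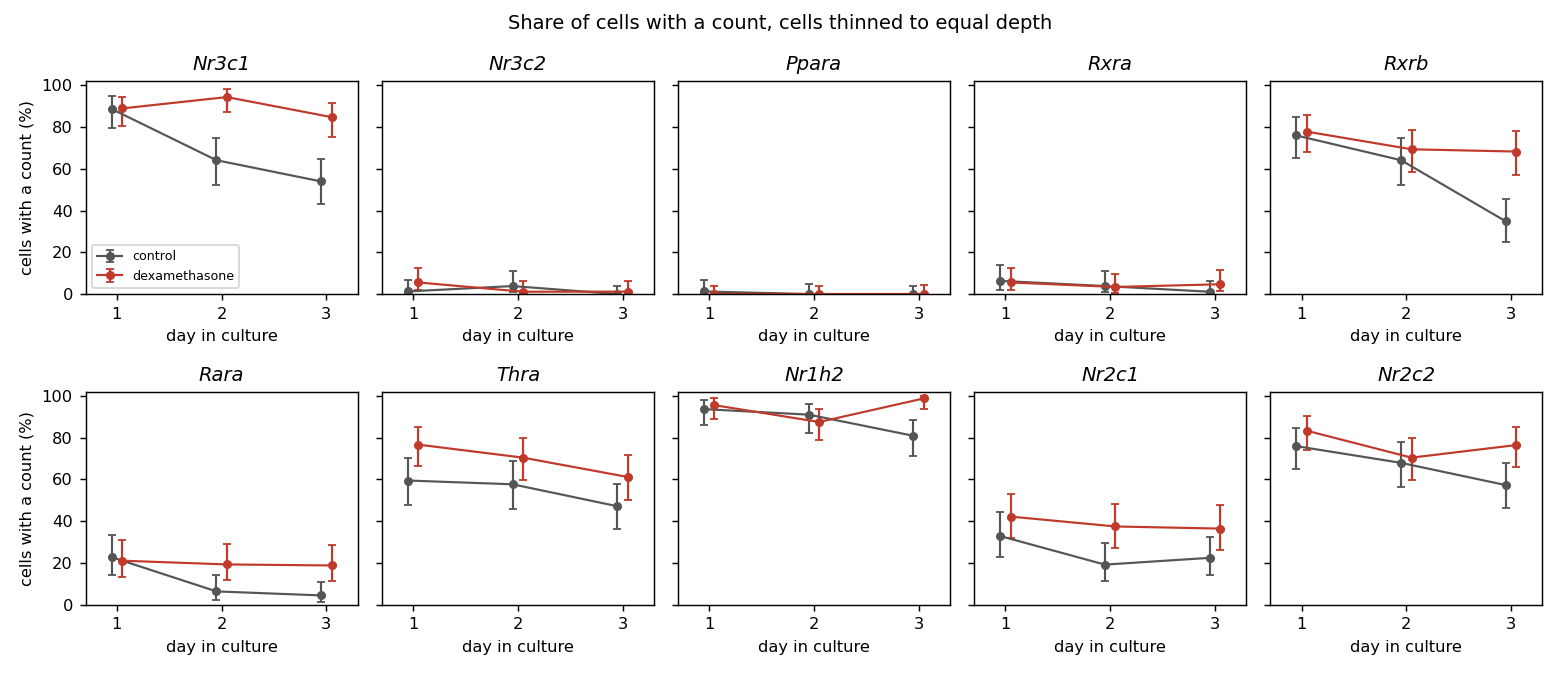
Share of cells with at least 1 count of each receptor gene by day, control grey and dexamethasone red, after thinning each cell to 620000 counts, with exact binomial intervals at 95%. Control shares of Nr3c1 and Rxrb on day 3 are 53.9% and 34.8%, against 84.7% and 68.2% with dexamethasone, while Nr3c2, Ppara and Rxra are low in both.

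Thra, the thyroid hormone receptor alpha, stood at 16.04, 19.9 and 14.6 CPM in control cultures and 17.3, 15.9 and 11.8 CPM with dexamethasone. The treatments overlapped, with log2 ratios of 0.11, -0.32 and -0.30 and a log2 fold change of -0.17 (SE 0.23, edgeR p 0.492). The share of cells with a Thra count was higher with dexamethasone on each day and went against the level on days 2 and 3, at 73.4%, 64.6% and 53.8% in control cells and 80.9%, 70.7% and 67.02% with dexamethasone, so no order is read from it. Thra and Nr1d1, a clock receptor on the opposite strand, share 263 exon bases, 5.70% of the exons of Thra, and reads there cannot be told apart without strand. The second thyroid hormone receptor gene, Thrb, had counts in 0 to 3 cells of a plate.

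Rara, the retinoic acid receptor alpha, was low, at 1.57, 1.23 and 1.96 CPM in control cultures and 1.86, 1.46 and 1.89 CPM with dexamethasone. The treatments overlapped in level. A Rara count was found in 21.3%, 7.29% and 4.30% of control cells and in 22.3%, 21.7% and 19.1% of dexamethasone cells. These shares were alike on day 1, their exact binomial intervals overlapped on day 2, and they were apart on day 3. The part of the number of genes per cell in these shares was not tested. On control day 3 a single cell gave 98.6% of the counts, and 99.5% lay in cells with neutrophil or monocyte markers. Without those cells Rara was at 0.0103 CPM on control day 3 and at 1.32 and 1.23 CPM on control days 1 and 2, against 1.66, 1.13 and 1.29 CPM with dexamethasone. The log2 fold change for dexamethasone was 0.14 (SE 0.46) with all cells and 1.53 (SE 1.73, edgeR p 0.422) without them.

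The orphan receptors Nr2c1 and Nr2c2 (TR2 and TR4) had plates that overlapped between treatments. Nr2c1 stood at 16.2, 7.33 and 12.2 CPM in control cultures and 13.95, 7.89 and 9.06 CPM with dexamethasone, with the day 2 plates lowest in both. Its day 2 against day 1 log2 fold change was -0.98 (SE 0.32, edgeR p 0.0361, adjusted p 0.376), the 1 member at an unadjusted p under 0.05 in that comparison, where 12.2% of all tested genes passed. Without cells bearing neutrophil or monocyte markers, which held 34.9% of the Nr2c1 counts of control day 1, it was -0.87 (p 0.0555). Nr2c1 counts came from 21.9% to 35.1% of control cells and 36.2% to 46.8% of dexamethasone cells, while the dexamethasone log2 fold change was -0.18 (SE 0.26), so no order is read from the shares.

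Nr2c2 stood at 31.8, 30.4 and 40.4 CPM in control cultures and 30.97, 30.7 and 32.6 CPM with dexamethasone, with an SD of 1.03 CPM over the 3 dexamethasone plates and 5.40 CPM over the control plates. Its log2 fold change was -0.11 (SE 0.17, edgeR p 0.545). Exons of Mrps25, a mitochondrial ribosomal protein gene on the opposite strand, cover 30.7% of the exon bases of Nr2c2. Where reads were counted without strand, the Nr2c2 count may hold reads of Mrps25 or lack some of its own. A Nr2c2 count was found in 59.1% to 79.8% of control cells and in 72.8% to 88.3% of dexamethasone cells.

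**Figure D5:**
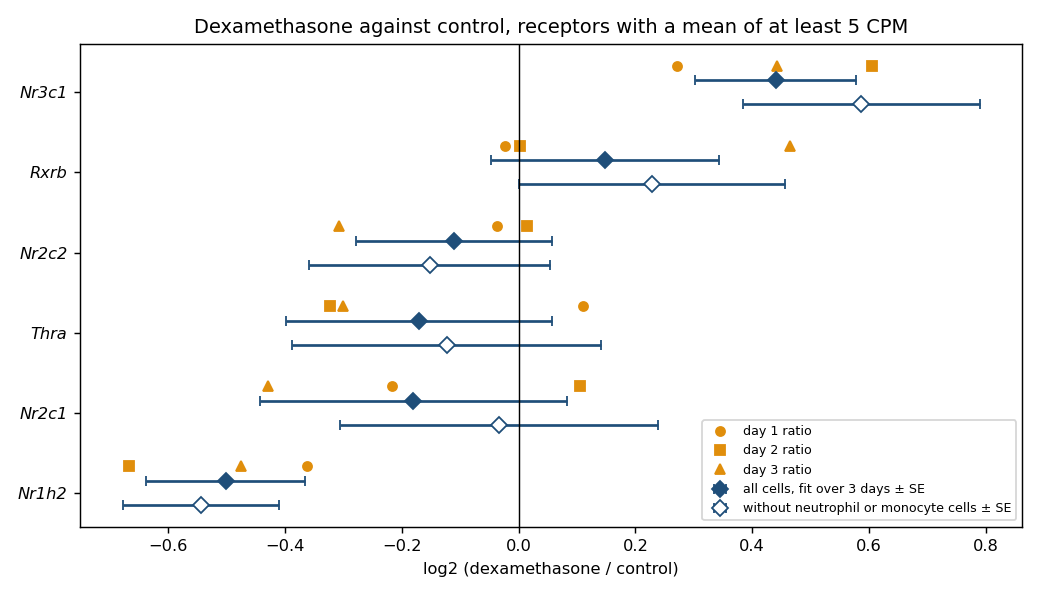
Log2 ratio of dexamethasone to control for the 6 members with a mean of at least 5 CPM. Filled diamonds give the edgeR fit over 3 days with all cells and open diamonds the fit without neutrophil or monocyte cells, each ± SE, and orange marks the ratio of each day; Nr3c1 is positive and Nr1h2 negative on all 3 days.

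Later days were compared with day 1 over both treatments. For day 3, 0 of 10 members reached an unadjusted p under 0.05 in edgeR, where 14.5% of all tested genes did, 0 passed the adjusted threshold, and DESeq2 also called 0. The median day 3 log2 fold change was -0.43 for the members and -0.03 for all tested genes. Of the 10 members 7 were negative, where 10279 of 20040 tested genes were. The negative members include Nr3c2, Ppara and Rxra, with counts in at most 6 cells of a plate, so no general fall of the receptors is read from the median. Nr1h2 and Nr2c2 were positive, at 0.40 (SE 0.17) and 0.21 (SE 0.21), and so was Rara at 0.17 (SE 0.57), which turned to -2.02 without cells bearing neutrophil or monocyte markers. In a fit with a straight line over days, 0 of 10 members had an unadjusted p under 0.05 for a change of the dexamethasone difference with day, where 667 of 20040 genes did and 0 passed the adjusted threshold.

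Among the 39 other nuclear receptor genes, 21 passed the filter, and edgeR called 0 of them for dexamethasone. Of the 21, 1 lay higher without overlap, where 7.14% of all tested genes did. DESeq2 called 1, where it called 7.43% of all genes it tested. The one with non-overlapping plates was Nr6a1, germ cell nuclear factor, at 0.547, 0.705 and 0.375 CPM in control cultures and 1.83, 5.65 and 2.51 CPM with dexamethasone. All its dexamethasone plates were higher (log2 fold change 2.50, SE 0.54, edgeR adjusted p 0.457, DESeq2 adjusted p 0.00666), and it was found in 1 to 6 control cells and 10 to 23 dexamethasone cells of a plate. Nr4a1, an immediate early receptor, Nr1d1, Esrra, Vdr and Nr1d2 had log2 fold changes from -0.44 to 1.05, with overlapping plates in each case.

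The coactivators and corepressors that the receptors recruit gave 0 edgeR calls among 18 and 19 tested genes, with medians of -0.15 and -0.09 against 0.07 for all genes. Ncoa4, a coactivator also known as the cargo receptor for ferritin, was at 37.1, 53.4 and 90.8 CPM in control cultures and 22.8, 30.4 and 38.4 CPM with dexamethasone. It was lower on each day, with overlap between days (log2 fold change -0.92, SE 0.17, edgeR adjusted p 0.457, DESeq2 adjusted p 0.000972). Of 12 tested chaperones of steroid receptors, DESeq2 called 1 higher and edgeR 0, where DESeq2 called 7.43% of all genes it tested. This was Fkbp5, a co-chaperone that lowers the affinity of the glucocorticoid receptor for hormone and a known target of that receptor. Fkbp5 stood at 21.03, 16.6 and 12.8 CPM in control cultures and 38.9, 44.3 and 26.8 CPM with dexamethasone, without overlap (log2 fold change 1.12, SE 0.20, edgeR adjusted p 0.457).

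Target genes listed for the RXR partners were split in sign. For PPAR alpha, 9 of 20 tested targets were positive, with a median of -0.07. For LXR it was 7 of 14, with a median of -0.02, and edgeR called 0 in each list. DESeq2 called 1 PPAR alpha target higher and 1 lower, and 1 LXR target lower, where it called 7.43% of all genes it tested. Of the 20 PPAR alpha targets, 0 lay higher and 3 lower without overlap, where 7.14% and 5.44% of all tested genes did. Those lower included Ehhadh (log2 fold change -0.77, SE 0.35). Acot2, a mitochondrial acyl-CoA thioesterase on the PPAR alpha list, was at 29.6, 32.5 and 49.1 CPM in control cultures and 15.3, 9.06 and 8.98 CPM with dexamethasone, without overlap (log2 fold change -1.75, SE 0.36, DESeq2 adjusted p 9.08e-05). Pex11a, a peroxisome membrane protein gene on the same list, was at 8.56, 7.82 and 0.919 CPM in control cultures and 15.7, 15.3 and 6.62 CPM with dexamethasone. It was higher on each day, with overlap between days (log2 fold change 1.54, SE 0.53, DESeq2 adjusted p 0.0488). Abca7, a lipid transporter on the LXR list, was lower on each day with a log2 fold change of -0.69 (SE 0.19, DESeq2 adjusted p 0.0301). Of 9 tested retinoic acid targets 5 were positive, 1 lay higher and 1 lower without overlap, and DESeq2 called 2 higher. Rdh10, a retinol dehydrogenase, was the higher gene without overlap, at 0.92 (SE 0.26, DESeq2 adjusted p 0.0436). Dhrs3 had the largest change of those with a mean of at least 5 CPM, at 2.61 (SE 1.28, DESeq2 adjusted p 0.0192), with overlapping plates. It was lower with dexamethasone on day 1 and higher on days 2 and 3, at 37.2, 0.807 and 1.41 CPM in control cultures and 24.1, 11.6 and 21.2 CPM with dexamethasone. Of 10 tested thyroid hormone targets 4 were positive, with Klf9, also a known glucocorticoid target, at 1.16 (SE 0.30) and without overlap. Among the 9 tested repression partners of TR2 and TR4 and embryonic globins, 2 were positive and no plates were apart.

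The genes whose levels over the 6 plates were most like those of Nr3c1 were led by Fkbp5, with a Pearson r of 0.994 on log2 CPM among 6835 genes with a mean of at least 20 CPM. Rbfa (r 0.993), Zfp511 (0.991), Hhex (0.987) and Ogfod1 (0.986) followed. These are descriptions over 6 points that share both treatments and all 3 days. Within plates no gene was closely tied to Nr3c1 from cell to cell. The highest mean Spearman rho across the cells of a plate, among 5964 genes, was 0.212 for Nap1l1, where the median gene had 0.03. Members with a count in at least 50% of the cells of every plate were likewise loosely tied, with mean rho from -0.08 (Thra and Nr1h2) to 0.10 (Nr1h2 and Nr2c2).

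Within a plate, Nr3c1 was loosely tied to erythroid markers, with a sign that changed between days. Its Spearman rho with their summed level, over 92 to 96 cells a plate, was 0.193 on control and 0.203 on dexamethasone day 1. On days 2 and 3 it was -0.164 and -0.042 in control and -0.135 and -0.248 in dexamethasone cells. With the early progenitor markers rho was -0.172 on control day 1 and 0.030 to 0.234 on the other plates. With the total count it ran from -0.034 to 0.250. On dexamethasone day 3 the 81 cells with a count of Slc4a1, the band 3 anion exchanger of maturing red cells, held 54.3 CPM of Nr3c1 and the 13 cells without held 102.1 CPM, or 53.9 and 101.2 CPM once cells with neutrophil or monocyte markers were left out. Nr1h2 was alike in the same cells, at 61.9 and 66.7 CPM. Erythroid and early progenitor marker levels differed between treatments as given above, and their part in the receptor differences was not tested.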

How the data were processed

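Polyadenylated RNA of single cells in 575 wells of 6 plates was measured. The deposited values are whole-number counts of reads per gene and well, made with STAR 2.4 and featureCounts on GRCm38, per the submitters' processing notes. Annotation release, strandedness and the handling of multi-mapped reads were not given in the sources used here. No molecular identifiers are stated, so intervals and limits cover counting error only. Of 576 value columns, 575 matched a well by name and 1 was not used. The header line carries 1 surplus empty cell, which was left out. Neighbouring columns belong to different plates, so moving the names by 1 column would change the day or treatment of the wells. Under this reading Fkbp5, a known glucocorticoid target, was higher on every dexamethasone plate than on every control plate.

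Wells with at least 50000 counts, 1500 genes with a count and at most 20% mitochondrial counts were kept as cells (563 kept, 12 removed), with 66140 to 3757116 counts per cell. Doublets were not called, because a sorter filled the wells. Cells are not replicates, so counts were summed per plate, giving 88158683 to 116554686 counts on the 20040 tested genes. These passed filterByExpr of edgeR 4.0.16, whose quasi-likelihood test with TMM scaling had day and treatment as terms and left 2 residual degrees of freedom. P-values were adjusted by Benjamini-Hochberg over all tested genes, with a threshold of 0.05. The SE is the log2 fold change divided by the square root of F. Daily ratios used a prior count of 2, with no test. Intervals are exact (Poisson for CPM, Clopper-Pearson for shares) at 95%, and a count of 0 allows up to 3. DESeq2 1.42.0, limma 3.58.1 on log2(mean CPM + 1), other filters and scalings, and each plate left out were alternatives. The fit was tested before use on simulated data with known changes, a fixed spread between plates and no day effect. Those changes were larger than the ones of Nr3c1 and Nr1h2, so the power for changes of their size was not tested. Gene positions and lengths came from GENCODE vM21. Sequence of the steroid receptor genes is not reported here.

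The members and lists were chosen with earlier results of these data known. Besides the 10 members, genes were named by size of the dexamethasone log2 fold change: up to 8 other receptors with a mean of at least 1 CPM, 4 coactivators and 4 corepressors, and 3 of each other list, with a mean of at least 5 CPM. The text gives those whose plates, levels or tests are told in full. Nr1h3, Thrb and the cell shares of Ppard and Pparg were added after their values were seen. Leaving out neutrophil or monocyte cells from the splits by Kit and Slc4a1 was chosen after seeing the data. The 5 genes most like Nr3c1 were taken by Pearson r over plates and by mean Spearman rho within plates.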

Additional observations from a re-analysis of the deposited data

How the results depend on the processing

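With dexamethasone, Nr3c1 stayed positive (0.35 to 0.59) and Nr1h2 negative (-0.60 to -0.39) under all 16 alternatives run, and each had an unadjusted p under 0.05 in 10 of them. Adjusted p-values ran from 0.157 to 0.816 for Nr3c1 and from 0.0499 to 0.816 for Nr1h2. The count of members at an adjusted p under 0.05 was 0 in each alternative except DESeq2, where it was 1 (Nr1h2). The count of members with all dexamethasone plates higher was repeated under other settings only after seeing the data, and was 1 with either other scaling and 0 without neutrophil or monocyte cells. The sign turned for Nr3c2 (-0.95 without each gene's highest cell, -1.21 to 2.97 with 1 plate left out), for Rxrb (-0.0244 to 0.234 with 1 plate left out), for Ppara at day 3 (-6.62 to 1.15 with 1 plate left out, fitted values over groups at 0 counts that cannot be read as a change) and for Rara at day 3 (-2.02 without neutrophil or monocyte cells). Unadjusted p-values under 0.05 were lost for both Nr3c1 and Nr1h2 without either day 2 or either day 3 plate, and with each cell weighted alike, for Nr3c1 without control day 1 and for Nr1h2 without the day term. A day with 1 plate left adds nothing to the treatment difference in these fits. Requiring at least 5 counts put the Nr3c1 share of control day 3 at 38.7% of cells. No paired analysis was possible because a number in the labels names a well, each day and treatment has 1 plate, and day is already a term. Rxra, Nr3c2 and Ppara had counts in at most 6 cells of a plate, too few to carry a difference.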
